A study of Homo sapiens with 4 samples.

Results

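The 2 long noncoding RNAs NEAT1 and MALAT1 and 5 genes for proteins that bind or accompany them (SFPQ, NONO, PSPC1, RBM14 and TARDBP) were followed across arsenic and PI3K/mTOR inhibitor treatment of an ovarian cancer line. The genes were taken by symbol from the deposited table, in which all 7 were found among 26255 symbols. The members were selected on their FPKM levels and differences in these same 4 libraries, so the values below describe them and test nothing. The cells were TOV21G, a human line labelled as ovarian clear cell carcinoma. As2O3 (arsenic trioxide) binds thiol groups of proteins and is a treatment for a form of leukaemia, and GSK458 inhibits both PI3K and mTOR, kinases of the main growth signalling pathway. The groups were As2O3 at 1 µM for 48 h, GSK458 at 0.1 µM for 48 h, both drugs together at the same doses for 48 h, and a control without drugs, whose own label gives no time, although the design text gives 48 h for the groups together. Each group was 1 library of poly(A)-selected RNA, with no replicate, so no difference has an error, a test or a p-value.

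Paraspeckles are bodies in the nucleus that assemble on NEAT1. The gene makes a short, polyadenylated transcript and a long one that ends without a conventional poly(A) tail, and the long transcript is the scaffold on which the bodies form. SFPQ, NONO and PSPC1 form the DBHS family, RNA-binding proteins that pair with one another and coat NEAT1. RBM14 is also needed for paraspeckles to form, and TDP-43, the product of TARDBP, is an RNA-binding protein found in them that is known to influence how NEAT1 is polyadenylated. MALAT1 is transcribed from a nearby locus, is retained in nuclear speckles and, like long NEAT1, ends in a triple helix in place of a poly(A) tail. Both RNAs lack a long open reading frame and are abundant in many epithelial cells.

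NEAT1 and MALAT1 lie near each other on chromosome 11. By start position, MIR612, FAUP4, ENEMAL and LINC02736 come between them in RefSeq, although MIR612 lies inside the NEAT1 locus. GENCODE release 29 lists a NEAT1 transcript of 22743 bases and one of 3524 bases that match the RefSeq records, and a MALAT1 transcript of 8708 bases. The deposited table has 1 value per symbol, so short and long NEAT1 could not be separated, and with poly(A) selection the transcripts without a tail are captured poorly or through internal A-rich stretches. SFPQ and TARDBP are on chromosome 1, PSPC1 on chromosome 13, RBM14 on chromosome 11 and NONO on chromosome X.

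The promoter windows of MALAT1 are shown because MALAT1 and NEAT1 were both higher with GSK458, and because its annotated transcripts start at different positions. The windows run from 250 bases before to 50 bases after the start, 5′ to 3′ on the plus strand, as given by RefSeq for GRCh38.p14, a different build from the hg19 that the submitters' processing notes name. The upstream window is chr11:65497488-65497787 and the downstream one chr11:65498795-65499094. Capitals mark matches to the motifs searched.
MALAT1 upstream start: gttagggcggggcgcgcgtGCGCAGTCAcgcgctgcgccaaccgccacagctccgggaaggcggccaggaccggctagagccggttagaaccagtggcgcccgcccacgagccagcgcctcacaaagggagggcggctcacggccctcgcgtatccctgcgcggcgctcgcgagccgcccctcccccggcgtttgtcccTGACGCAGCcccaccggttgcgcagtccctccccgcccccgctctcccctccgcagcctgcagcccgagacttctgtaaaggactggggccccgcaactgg
MALAT1 downstream start: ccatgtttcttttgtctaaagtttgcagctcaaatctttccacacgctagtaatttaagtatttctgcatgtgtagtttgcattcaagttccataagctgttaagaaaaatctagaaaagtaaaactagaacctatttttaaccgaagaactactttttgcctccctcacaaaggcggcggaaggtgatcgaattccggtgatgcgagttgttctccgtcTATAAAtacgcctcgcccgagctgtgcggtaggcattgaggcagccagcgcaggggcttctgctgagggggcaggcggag

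Both strands were searched for 5 motifs. These were TGACNNNGC, the core of the antioxidant response element, TGACGTCA, the cAMP response element, GAANNTTC, an inverted pair of heat shock element units, CACGTG, the E-box, and TATAAA, the TATA box. The upstream window was 73.7% G and C and held TGACNNNGC on the minus strand from position −231 and on the plus strand from position −51. The downstream window was 46.0% G and C and held TATAAA from position −30. Of 35116 windows of this length, 13.3% held TGACNNNGC, 11.5% TATAAA, 7.26% CACGTG, 6.77% GAANNTTC and 1.85% TGACGTCA. PSPC1, the only other gene of the 5 with a window that had a match, held TGACNNNGC from position −122. The table of windows has no entry for NEAT1 or SFPQ.

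The libraries were close in their FPKM totals but not in every class of RNA. FPKM, the fragments counted per kilobase of gene model and per 1000000 mapped, summed to between 543975 and 588892. The steps between low values put the relative depth of the As2O3, GSK458 and combination libraries at 96.3%, 108.7% and 85.8% of the control's. This reading holds only if the deposited values were scaled by mapped totals, which was not tested. The absolute depth is unknown. Small RNA genes took 0.106%, 0.126% and 0.259% of the summed FPKM in the As2O3, GSK458 and combination libraries, against 0.0770% in the control. Of 12 markers of immune, endothelial and fibroblast cells, 4 were listed at 0 in every library, among them PTPRC, and the 12 summed to 9.07, 3.37 and 4.62 FPKM in the As2O3, GSK458 and combination libraries, against 3.58 FPKM in the control. Of the clear cell carcinoma markers, PAX8 stood at 149.2 FPKM with As2O3, 83.6 with GSK458 and 88.7 with both, against 96.8 FPKM in the control, and NAPSA and EPCAM averaged below 1 FPKM. The 11 clear cell markers summed to 2771, 1917 and 3258 FPKM in the As2O3, GSK458 and combination libraries, against 1457 FPKM in the control, and GPX3 stood at 4.55 FPKM with As2O3, 155.2 with GSK458 and 143.6 with both, against 2.12 FPKM in the control. Values are per culture, so fewer cells that express a gene and less RNA per cell cannot be told apart.

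All 7 genes averaged at least 1 FPKM across libraries and were kept, as were 12260 genes in all. NONO was the highest of the 7 in every library, above 97.5% of the 12260 genes in each. NEAT1 was below NONO, SFPQ, TARDBP and PSPC1 in the control and with As2O3, and below NONO alone with GSK458 and with both drugs. RBM14 and MALAT1 were the lowest pair in all libraries. SFPQ was next to NONO in the control, at 91.5 FPKM, and 1 place lower in the other libraries.

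**Figure D1:**
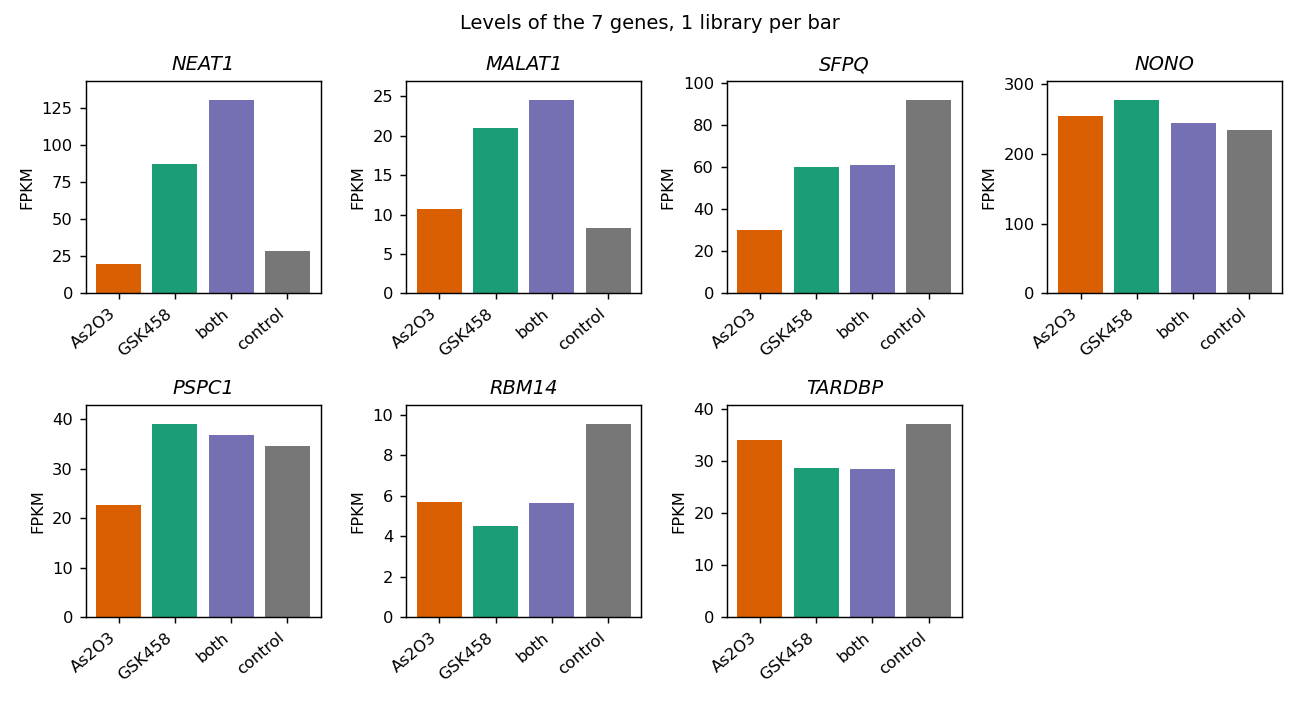
FPKM of the 7 genes, with 1 panel per gene and 1 bar per library (As2O3, GSK458, both drugs, control) on linear axes that start at 0 and differ between panels. There are no error bars because each bar is 1 library. NEAT1 and MALAT1 are highest with both drugs, at 130.2 and 24.5 FPKM, SFPQ and RBM14 are highest in the control, at 91.5 and 9.55 FPKM, and NONO stays between 233.9 and 276.9 FPKM.

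NEAT1, the scaffold RNA, differed most across the libraries of the 7 genes. It stood at 20.05 FPKM with As2O3, 87.3 FPKM with GSK458 and 130.2 FPKM with both drugs, against 28.6 FPKM in the control. The libraries with GSK458 were both above those without it. The level with both drugs was 6.50 times that with As2O3 alone. Differences below are on the log2(FPKM + 1) scale, which understates differences of low genes, and a gene is counted as called where it is at least 2-fold apart on that scale. NEAT1 differed from the control by 1.58 with GSK458 and by 2.15 with both drugs, and by −0.49 with As2O3. Across the 12260 genes, these differences were above those of 99.4%, 99.6% and 9.30% of genes.

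MALAT1, the speckle RNA near NEAT1, stood at 10.7 FPKM with As2O3, 21.0 FPKM with GSK458 and 24.5 FPKM with both drugs, against 8.24 FPKM in the control. It followed NEAT1 in being higher in both libraries with GSK458. It was not lower with As2O3, and its spread was smaller, with the highest library 2.97 times the lowest. Its differences from the control were 0.34 with As2O3, 1.25 with GSK458 and 1.46 with the combination. The ratio of NEAT1 to MALAT1 in FPKM was 1.87 with As2O3, 4.17 with GSK458 and 5.32 with both, against 3.47 in the control. An antisense gene, TALAM1, overlaps MALAT1 and has no value in the table, and the strand setting (not given in the sources used here) is unknown, so reads of the 2 cannot be told apart. MIR612, a microRNA gene inside the NEAT1 locus, was listed at 0 in all 4 libraries.

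The DBHS genes did not share 1 pattern. SFPQ, which is also a splicing factor and transcriptional corepressor, stood at 30.1 FPKM with As2O3, 60.1 FPKM with GSK458 and 60.7 FPKM with both drugs, against 91.5 FPKM in the control. It was lower than the control in every treated library, with differences of −1.57, −0.60 and −0.58. The As2O3 library stood apart from the others, with SFPQ at 32.9% of its control level, a difference above those of only 0.294% of genes.

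NONO, the most abundant partner of SFPQ, stood at 253.9 FPKM with As2O3, 276.9 FPKM with GSK458 and 243.8 FPKM with both, against 233.9 FPKM in the control. Its highest library was 1.18 times its lowest. PSPC1, named after the paraspeckle, stood at 22.8 FPKM with As2O3, 39.0 FPKM with GSK458 and 36.7 FPKM with both, against 34.5 FPKM in the control. As with SFPQ, its lowest library was As2O3 alone, with a difference of −0.58 from the control, whereas with GSK458 and with both it was within 0.17 and 0.09 of it. For each FPKM of NONO there was 0.118 FPKM of SFPQ with As2O3, 0.217 with GSK458 and 0.249 with both, against 0.391 in the control. RefSeq lists 1 pseudogene symbol for SFPQ, 2 for NONO, 2 for PSPC1 and 5 for TARDBP, none of them in the deposited table, and the handling of multi-mapped reads is unknown, so these values are uncertain to that extent.

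RBM14, a coactivator needed for paraspeckle assembly, stood at 5.69 FPKM with As2O3, 4.49 FPKM with GSK458 and 5.66 FPKM with both, against 9.55 FPKM in the control. All 3 treated libraries were below the control, with differences of −0.66, −0.94 and −0.66. RBM14 shares exons with the readthrough gene RBM14-RBM4, so its value is uncertain. That gene showed the same order of treated below control, at 2.85 FPKM with As2O3, 3.30 with GSK458 and 2.97 with both, against 5.13 FPKM in the control. TARDBP stood at 34.1 FPKM with As2O3, 28.6 FPKM with GSK458 and 28.5 FPKM with both, against 37.1 FPKM in the control, and its largest difference from the control was −0.37.

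Set against the control, As2O3 alone had 1 of the 7 genes at least 2-fold lower, SFPQ, and none at least 2-fold higher. Over all genes 1.41% were called lower and 2.07% higher, 3.48% in either direction. That is 173 and 254 genes, or 292 lower and 246 higher after rescaling every library to sum to 1000000. Of the other genes, NEAT1, PSPC1, RBM14 and TARDBP had values below the control and MALAT1 and NONO above it.

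GSK458 alone had 2 of the 7 genes at least 2-fold higher than the control, NEAT1 and MALAT1, and none lower, where 2.35% of all genes were called higher and 3.87% lower, 6.22% in either direction. RBM14 lay just inside the limit at −0.94, and passed it at −1.07 with a pseudocount of 0.1 FPKM and at −1.11 with that rescaling. MALAT1 was at 0.97 with a pseudocount of 5 FPKM.

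With both drugs the same 2 RNAs were at least 2-fold higher than the control and no gene was lower, where 3.25% of all genes were called higher and 4.31% lower, 7.56% in either direction. The 3 comparisons with the control share the control library, so its values enter each of them. The 5 protein genes had a median difference of −0.37 with both drugs, with 2 of 5 above the control, against a median of −0.01 over all genes.

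**Figure D2:**
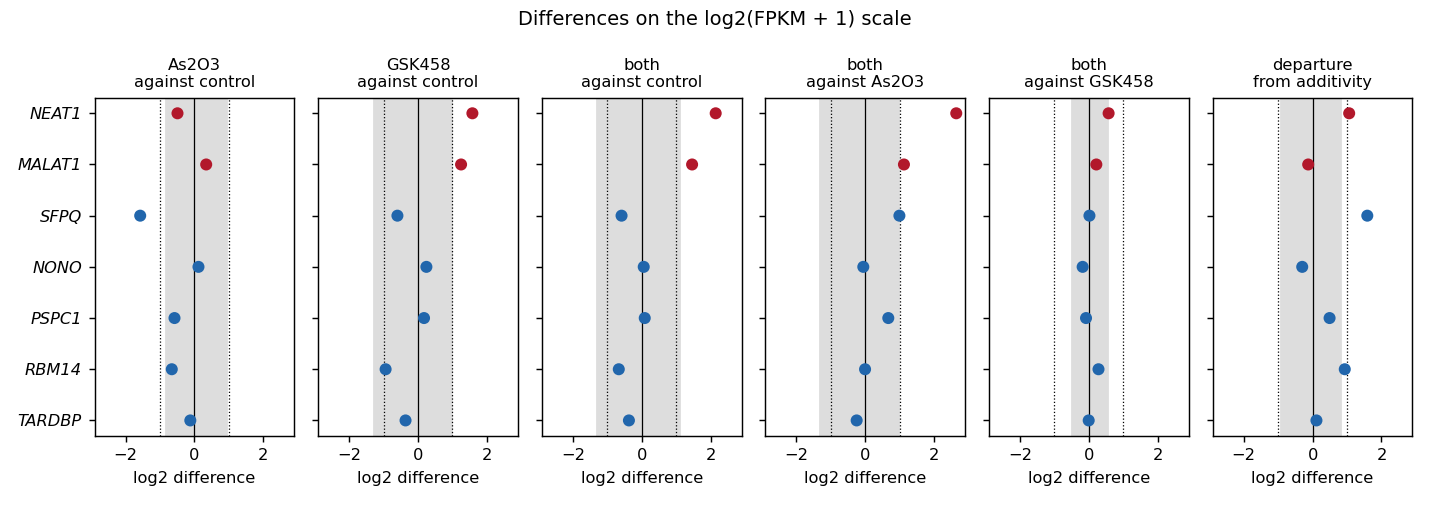
Differences of the 7 genes on the log2(FPKM + 1) scale in 5 comparisons and for the departure from additivity, with red points for the RNAs and blue points for the protein genes. Grey bands hold the central 95% of the 12260 genes and dotted lines mark 2-fold. With GSK458 and with both drugs against the control the 2 red points lie above the band and the blue points within it, and SFPQ lies below the band with As2O3.

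The effect of each drug could also be read in the presence of the other, from a pair of libraries that shares none with the comparison of that drug with the control. Both drugs against As2O3 alone give GSK458 on an arsenic background. NEAT1 differed by 2.64 and MALAT1 by 1.12, so 2 of the 7 genes were at least 2-fold higher, where 2.28% of all genes were called higher and 4.27% lower, 6.56% in either direction. SFPQ, at 60.7 FPKM with both and 30.1 FPKM with As2O3, differed by 0.99, just inside the limit. It was past the limit at 1.01 with a pseudocount of 0.1 FPKM, 1.03 with rescaling and 1.06 with upper-quartile scaling. PSPC1 differed by 0.67 and TARDBP by −0.25. NONO and RBM14 lay close to 0, at −0.06 and −0.01, and changed sign under at least 1 scaling. MALAT1 was at 0.91 with a pseudocount of 5 FPKM.

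Both drugs against GSK458 alone give As2O3 on a background of PI3K and mTOR inhibition. None of the 7 genes was at least 2-fold apart, and only 0.644% of all genes were called higher and 0.318% lower, 0.962% in either direction. NEAT1 differed by 0.57, above 97.7% of genes, with 130.2 FPKM against 87.3 FPKM. SFPQ, which differed by −1.57 with As2O3 alone, stood at 60.7 FPKM with both and 60.1 FPKM with GSK458, a difference of 0.01. PSPC1 differed by −0.08, RBM14 by 0.28, NONO by −0.18 and TARDBP by −0.01, and the SFPQ and TARDBP values changed sign under at least 1 scaling.

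The series title names synergy of the 2 drugs, so the combination was also set against the sum of the single-drug differences. SFPQ stood at 60.7 FPKM with both drugs, where the sum on the log scale gives 19.5 FPKM, a departure of 1.59. NEAT1 stood at 130.2 FPKM, where the sum gives 61.8 FPKM, a departure of 1.06. These 2 of the 7 genes departed upwards by at least 2-fold and none downwards, where 1.33% of all genes were called upwards and 2.05% downwards, 3.38% in either direction. That is 163 and 251 genes, or 351 and 215 after the same rescaling. With a pseudocount of 5 FPKM NEAT1 was at 0.97. RBM14 departed by 0.93, and by 1.06 with a pseudocount of 0.1 FPKM and 1.12 with rescaling. MALAT1 departed by −0.13, its 24.5 FPKM standing beside 26.8 FPKM for the sum. The departures of PSPC1, NONO and TARDBP were 0.49, −0.30 and 0.11. The As2O3 and GSK458 libraries enter this quantity with a minus sign, so a low value in either raises it. The control and combination libraries enter with a plus sign, so a high value in either raises it too. SFPQ and RBM14 were highest in the control, at 91.5 and 9.55 FPKM.

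Other genes for paraspeckle proteins were examined as a list of 32, all of which passed the filter. With As2O3, 23 were below the control and 9 above, with a median of −0.12 against 0.01 over all genes, of which 51.2% were above the control and 1.41% were called lower. Of them 3 were at least 2-fold lower, among them HNRNPM and RBM4B, and none was higher. HNRNPM, a splicing regulator, stood at 34.2 FPKM with As2O3, 54.5 FPKM with GSK458 and 56.0 FPKM with both, against 104.0 FPKM in the control. RBM4B, whose close paralog RBM4 makes its value uncertain, stood at 4.55 FPKM with As2O3, 10.7 with GSK458 and 11.7 with both, against 10.2 FPKM in the control. HNRNPM and RBM4B shared with SFPQ a lowest value with As2O3 alone and a departure from additivity of at least 2-fold upwards, at 1.62 and 1.13.

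With GSK458, 20 of the 32 genes were below the control and none was 2-fold apart, where 6.22% of all genes were, with a median of −0.14 and the largest difference at −0.92 for HNRNPM. With both drugs 20 were again below the control and none was 2-fold apart (median −0.19), where 7.56% of all genes were. HNRNPA1, an abundant splicing factor with many processed pseudogenes that make its value uncertain, was among those above the control, at 1203 and 1076 FPKM with GSK458 and both and 658.6 FPKM with As2O3, against 779.1 FPKM in the control. Between both drugs and GSK458 alone none of the 32 was 2-fold apart, and all 32 differed by less than 0.5.

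**Figure D3:**
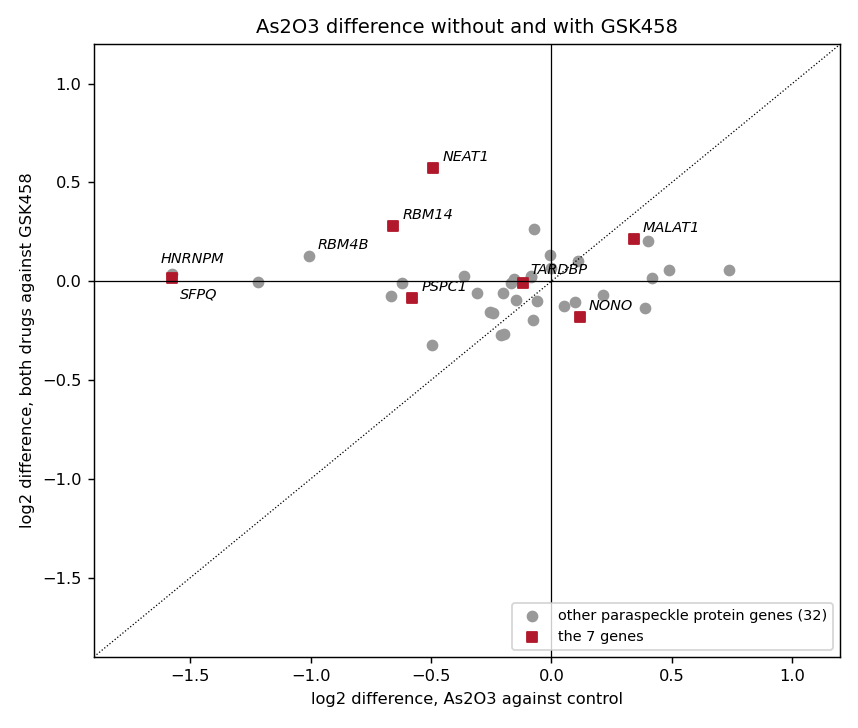
Log2 difference with As2O3 alone against the control (x axis) and with both drugs against GSK458 alone (y axis) for the 7 genes (red squares) and the 32 other paraspeckle protein genes (grey circles), 1 point per gene, with a dotted line where the differences are equal. The 2 axes share no library. SFPQ and HNRNPM lie at −1.57 and −1.58 on the x axis and at 0.015 and 0.038 on the y axis, and NEAT1 lies at −0.49 and 0.57.

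Genes for nuclear speckle proteins, the compartment in which MALAT1 is held, numbered 26 and included the SR splicing factors and the CLK kinases that phosphorylate them. With As2O3, 16 were below the control (median −0.07), where 51.2% of all genes were above it and 1.41% were called lower. BCLAF1, a speckle-associated RNA-binding protein, was the only one at least 2-fold lower, at 8.08 FPKM with As2O3, 15.9 with GSK458 and 17.2 with both, against 19.2 FPKM in the control. With GSK458, 18 were below the control (median −0.17) and CLK1 was the only one 2-fold higher, where 49.4% of all genes were above it and 2.35% were called higher. CLK1 stood at 15.0 FPKM with As2O3, 19.8 with GSK458 and 24.0 with both, against 9.19 FPKM in the control, the same order of libraries as MALAT1.

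Genes that form or guard noncoding 3′ ends were examined as well, 29 in all, including the subunits of RNase P, which cuts NEAT1 and MALAT1 at their 3′ ends, and the cleavage and polyadenylation factors. With GSK458, 7 were above the control and 22 below and none was 2-fold apart (median −0.33), where 49.4% of all genes were above the control and 6.22% were called. With both drugs 6 were above it and 23 below (median −0.33), where 48.8% of all genes were above it and 7.56% were called. CSTF3, a cleavage stimulation factor, and POP5, an RNase P subunit, were at least 2-fold lower. CSTF3 stood at 20.5 FPKM with both, against 44.0 FPKM in the control, and POP5 at 10.5 FPKM with both, against 22.6 FPKM in the control. With As2O3, 9 were above the control and 20 below and none was 2-fold apart (median −0.08), where 51.2% of all genes were above it and 3.48% were called.

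A list of 12 transcription factors reported to act on NEAT1 in other systems went both ways. EPAS1, the hypoxia factor HIF-2α, was at least 2-fold higher in all 3 treated libraries, at 146.1 FPKM with As2O3, 110.6 with GSK458 and 148.9 with both, against 54.2 FPKM in the control. ATF4, the factor of the amino acid response, was 2-fold higher with As2O3, at 534.4 FPKM, against 254.3 FPKM in the control, and stood at 485.0 and 442.9 FPKM with GSK458 and both. E2F1, a cell cycle factor, stood at 7.92 FPKM with As2O3, 0.98 with GSK458 and 1.37 with both, against 8.03 FPKM in the control. NFE2L2, the gene for NRF2, stood at 56.3 FPKM with As2O3, 73.0 with GSK458 and 74.8 with both, against 43.2 FPKM in the control. HSF1, the heat shock factor, stood at 46.3, 50.4 and 49.8 FPKM, against 36.3 FPKM in the control. The part of these genes in the NEAT1 values was not tested.

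The neighbours of NEAT1 and MALAT1 differed less with GSK458, with 1 exception. Of 14 measured neighbours at 11q13, ordered by RefSeq, none was at least 2-fold higher in any of the 5 comparisons, and POLA2, a DNA replication gene, was the only one 2-fold lower. Over all genes between 0.644% and 3.25% were called higher in these comparisons and between 0.318% and 4.31% lower. Counts this low among 14 genes are near those shares and do not set the neighbours apart. POLA2 stood at 9.28 FPKM with As2O3, 2.18 with GSK458 and 2.65 with both, against 10.4 FPKM in the control. FRMD8 stood at 9.66 FPKM with As2O3, 12.4 with GSK458 and 14.3 with both, against 11.5 FPKM in the control. FAM89B stood at 21.7 FPKM with As2O3, 30.7 with GSK458 and 31.6 with both, against 29.2 FPKM in the control. Both genes had the same order of libraries as NEAT1, with smaller differences, and the share of all genes with that order was not computed. LTBP3, a regulator of TGF-β release, was also lowest with As2O3, at 22.0 FPKM, and stood at 38.6 FPKM with GSK458 and 35.6 with both, against 26.1 FPKM in the control. SLC25A45, the gene before NEAT1, stood at 1.36 FPKM with As2O3, 2.23 with GSK458 and 1.72 with both, against 2.43 FPKM in the control. With As2O3, 7 of the 14 were above the control and 7 below. Among those above it, EHBP1L1 stood at 10.9 FPKM with As2O3, 8.32 with GSK458 and 11.6 with both, against 6.35 FPKM in the control. The medians of the 14 were −0.05, −0.01 and −0.04 for As2O3, GSK458 and the combination against the control. Each of these medians changed sign under at least 1 alternative setting, and the GSK458 value did so under at least 1 scaling.

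**Figure D4:**
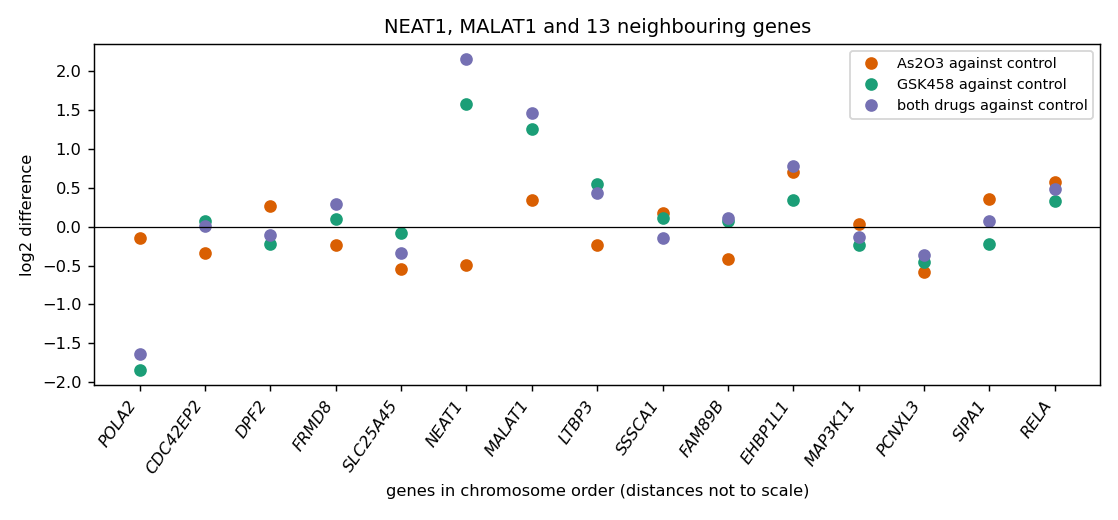
Log2 difference against the control for NEAT1, MALAT1 and 13 of the neighbouring genes in chromosome order (x axis, not to scale), with orange points for As2O3, green for GSK458 and purple for both drugs. NEAT1 at 1.58 and 2.15 and MALAT1 at 1.25 and 1.46 stand above the neighbours with GSK458 and with both drugs, where the highest neighbour values are 0.55 and 0.78.

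Other long noncoding RNAs were also higher with GSK458 in part. Of 22 that passed the filter, 16 were above the control with GSK458 (median 0.34) and 16 with both drugs (median 0.33), with 5 at least 2-fold higher and none lower in each. Over all genes 49.4% were above the control with GSK458 and 48.8% with both drugs, and 2.35% and 3.25% were called higher. The leading ones with GSK458, EPB41L4A-AS1, GAS5, SNHG12 and ZFAS1, are hosts of small nucleolar RNAs. TUG1, found in nucleus and cytoplasm, stood at 14.8 FPKM with As2O3, 28.3 with GSK458 and 31.0 with both, against 22.0 FPKM in the control, the same order of libraries as NEAT1. LINC00473 was 2-fold lower with As2O3, at 4.59 FPKM, against 15.5 FPKM in the control, and stood at 14.5 and 12.5 FPKM with GSK458 and both.

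Transcripts taken to lack a poly(A) tail were listed because MALAT1 and long NEAT1 lack one and the libraries were poly(A)-selected. Of 17 listed symbols, 12 were in the table and 6 passed the filter. RMRP, the RNA of RNase MRP, stood at 10.01 FPKM with As2O3, 14.2 with GSK458 and 22.5 with both, against 1.93 FPKM in the control. RPPH1, the RNA of RNase P, stood at 1.60, 2.36 and 5.38 FPKM, against 2.05 FPKM in the control. The histone gene HIST1H2AC stood at 2.82 FPKM with As2O3, 10.95 with GSK458 and 6.09 with both, against 10.86 FPKM in the control. The 12 summed to 29.3 FPKM with As2O3, 59.1 with GSK458 and 65.6 with both, against 49.0 FPKM in the control, and their part in the NEAT1 and MALAT1 values was not tested. These sums rest on a few genes. RNU11, a spliceosomal RNA, was listed at 0 in the As2O3, GSK458 and control libraries and supplied 11.1 FPKM of the sum with both. The histone gene HIST1H1C supplied 11.4 FPKM with As2O3, 22.3 with GSK458 and 14.4 with both, against 24.1 FPKM in the control. In the control, HIST1H1C, HIST1H2AC and HIST1H2BD, the last at 7.81 FPKM, were the largest of the 12. Whether the histone transcripts counted here lack a tail was not tested, so the sums may not follow RNA without one.

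The genes whose profile over the 4 libraries was closest to that of NEAT1, among 9124 genes averaging 5 FPKM or more and by the root mean square difference of centred log2 values, were SPON2, GATS, BAIAP3, MEGF6 and TMEM27, at 0.18 to 0.33. SPON2, an extracellular matrix protein, stood at 1.72 FPKM with As2O3, 15.2 with GSK458 and 20.3 with both, against 3.76 FPKM in the control. MALAT1 was number 46 in that order, at 0.56. Closest to MALAT1 were GABBR1, CPT1B, RSRP1, MSLN and HSD17B11, at 0.07 to 0.08. In the order for MALAT1, NEAT1 was only number 2833, behind PSPC1 at number 2010. MSLN, the surface antigen mesothelin, stood at 5.59 FPKM with As2O3, 13.02 with GSK458 and 15.2 with both, against 4.30 FPKM in the control. Closest to SFPQ were CDKL1, FAIM, SPNS2, HNRNPM and ZNF688, at 0.11 to 0.16, and PSPC1 was number 296.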

How the data were processed

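RNA of 4 TOV21G cultures, 1 library per group, was sequenced after poly(A) selection with a stranded kit, per the labels' protocols. The authors deposited FPKM values for 26255 gene symbols, which were used as deposited. The submitters' processing notes name Cuffdiff 2.2.1, SAMtools 0.1.18, TopHat2 2.1.1 and Bowtie2 2.2.8 with the build hg19, and give no roles. Gene annotation, strand setting and handling of multi-mapped reads: not given in the sources used here.

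The 12260 genes averaging 1 FPKM or more were compared on log2(FPKM + 1), with a threshold of 2-fold. No test was run with 1 library per group, and FPKM values keep no read counts, so no interval was computed. The departure from additivity was both drugs minus As2O3 minus GSK458 plus the control. Relative depth was the commonest ratio, after rounding to 3 decimals, of the values of genes above 0 and below 0.5 FPKM in the control. The 7 genes and the 9 other lists were chosen with earlier results of these data known. All 7 genes are named. Of each other list the rule took up to 4 genes each way at least 2-fold apart, or the 2 largest, among those reaching 5 FPKM in a library. Other list members that are named were chosen after their values were seen, and part of what the rule selects is not reported here. The closest profiles are the 5 nearest genes without small RNA symbols. Where a gene is said to share an order of libraries, the share of all genes with that order was not computed. Alternatives were no filter on low values, a minimum mean of 5 FPKM, pseudocounts of 0.1 and 5 FPKM, scaling by sum, by median of ratios and by upper quartile, a 1.5-fold threshold and leaving out small RNA genes. The computation of differences and 2-fold counts was checked on simulated data. Python 3.11.15, pandas 2.3.3, numpy 2.4.6 and matplotlib 3.10.9 were used.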

Additional observations from a re-analysis of the deposited data

Results flagged for a closer look

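The differences of 4 of the 7 genes with 1 drug had opposite signs without and with the other drug, and with 1 library per group none of these contrasts was tested. The share of all genes with such opposite signs was not computed, so this count does not set the 7 genes apart. NEAT1 differed with As2O3 by 0.57 in the presence of GSK458 and by −0.49 in its absence. SFPQ differed with As2O3 by 0.015 in the presence of GSK458 and by −1.57 in its absence, and with GSK458 by 0.99 in the presence of As2O3 and by −0.60 in its absence. RBM14 differed with As2O3 by 0.28 in the presence of GSK458 and by −0.66 in its absence. NONO differed with As2O3 by −0.18 in the presence of GSK458 and by 0.12 in its absence, and with GSK458 by −0.058 in the presence of As2O3 and by 0.24 in its absence. The SFPQ value of 0.015 and the NONO value of −0.058 changed sign under at least 1 scaling.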

How the results depend on the processing

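Of 42 differences (7 genes, 5 comparisons and the departure from additivity), 38 kept their sign under all 9 alternatives; the other 4, NONO and RBM14 for both drugs against As2O3 and SFPQ and TARDBP for both drugs against GSK458, were all below 0.1 in size. With a pseudocount of 5 FPKM, 1 of the 7 genes in place of 2 was at least 2-fold apart for GSK458 against control, for both drugs against As2O3 and for the departure from additivity, the larger pseudocount shrinking every difference. At a 1.5-fold threshold 2 genes in place of 1 were called for As2O3 against control, 4 in place of 2 for GSK458 against control and 4 in place of 2 for both drugs against As2O3. Rescaling to a sum of 1000000 moved the median of all genes to −0.11 for GSK458 against control and to 0.13 for the departure. Counts over all genes depended more on the settings. For As2O3 against control they were 427 as reported, 729 with a pseudocount of 0.1 FPKM, 188 with 5 FPKM, 281 with a minimum mean of 5 FPKM and 1702 at 1.5-fold. For both drugs against As2O3 they were 804, 1277 with 0.1 FPKM, 345 with 5 FPKM and 2587 at 1.5-fold. For both against GSK458 they were 118, 270 with 0.1 FPKM, 52 with 5 FPKM, 76 with a minimum mean of 5 FPKM and 457 at 1.5-fold. For the departure they were 414, 781 with 0.1 FPKM, 155 with 5 FPKM, 246 with a minimum mean of 5 FPKM and 1729 at 1.5-fold. For GSK458 and for both against control they were 763 and 927, 382 and 423 with 5 FPKM, and 2323 and 2646 at 1.5-fold. Of 48 medians of the other lists, 35 kept their sign under all alternatives in which they were computed. No paired analysis was possible because each group has 1 library. The depth is unknown, so what counting error alone would allow could not be set beside any value, which weighs most on RBM14 and MALAT1, the lowest of the 7.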
